A study of Mus musculus with 11 samples.

Results

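H3K4me2, dimethylation of histone H3 at lysine 4, was compared in jejunal villus epithelium between the double knockout titled Cdx2-Hnf4a and the Cdx2 knockout, to see what a second deletion adds to the loss of Cdx2. These are 2 of the series' 11 samples, each represented by a list of called nucleosomes. The members of the comparison are the nucleosomes with a score of 52 or more outside the mitochondrial genome, the score being a −log10 p-value multiplied by 10. There were 256788 of them in the Cdx2 knockout and 275910 in the double knockout, of 1310280 in the 5 H3K4me2 lists of the series. In the Cdx2 knockout the nearest scores on either side of the minimum were 51.9 and 53.1, and in the double knockout 51.1 and 52.2.

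H3K4me2 marks nucleosomes at promoters and enhancers. At an enhancer bound by a transcription factor the bound DNA is often free of a nucleosome, and a marked nucleosome sits on each side of it. CDX2 is a homeodomain factor that gives the intestinal epithelium its identity, and HNF4A is a nuclear receptor that acts in enterocytes, among others on genes of lipid metabolism. Both are known to occupy many of the same enhancers in villus cells.

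All groups came from mice of a mixed 129xC57BL6 strain. Villi were freed with EDTA and caught on a filter that let crypts pass, and each library was built from ChIP DNA pooled over several experiments. The H3K4me2 groups were wild type, Cdx2 knockout, Hnf4a knockout and 2 double knockouts titled Cdx2-Cdx1 and Cdx2-Hnf4a, with 1 library each. HNF4A peaks were from wild type (22375 peaks) and Cdx2 knockout (9676). CDX2 peaks were from 2 wild-type libraries (12121 and 7441), whose overlapping peaks form 1584 regions called CDX2 sites here. Age, sex and the driver of the deletions were not stated in the labels. With 1 library a side there is no replicate error, no p-value was computed between groups, and every interval is a 95% interval of counting error only. The intervals take counts as independent and can be too narrow. No gene is named by position, because the lists are on build mm9 and no annotation of that build was used, so the cell type and the deleted genes were not checked at their own loci.

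The labels of both double knockouts disagree. For the list titled Cdx2-Hnf4a, the source repeats the title and the description names Cdx1 as the second gene. For the list titled Cdx2-Cdx1, the source and the description both name Hnf4a. The antibody label of the list titled Cdx2-Hnf4a also gives 1 lot that differs from those of the other 4 H3K4me2 samples. As labelled, antibody lot and genotype cannot be told apart in any comparison with that list. No paper was used here, so which label is right is not settled by the sources used here. Both libraries are called by title, and Cdx2 is deleted under every label.

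Windows of 2 kb on chromosome 2, which carries Hnf4a, were looked at because earlier results of these data pointed there. They were thus picked from these same data, and none was placed relative to the Hnf4a locus, so they cannot settle the labels. On that chromosome 73 windows held 2 or more nucleosomes in wild type and in Cdx2 knockout and none in Hnf4a knockout. Of these, 26 were also empty in the list titled Cdx2-Cdx1 (35.6%, 24.8 to 47.7) and 10 in the list titled Cdx2-Hnf4a (13.7%, 6.77 to 23.8). On the other chromosomes the shares were 18.2% (15.3 to 21.3) and 14.9% (12.3 to 17.8) of 677 windows. With 3 or more nucleosomes in wild type and in Cdx2 knockout, 8 and 2 of 13 windows on chromosome 2 were empty, against 14 and 17 of 108 elsewhere. On chromosome 2 the list titled Cdx2-Cdx1 thus shared more of the windows emptied in Hnf4a knockout than the list titled Cdx2-Hnf4a did. What underlies this difference was not tested, and no label is chosen from it.

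Genome-wide, most of the Cdx2 knockout's marked nucleosomes were found again in the double knockout titled Cdx2-Hnf4a. A nucleosome of the double knockout overlapped 78.7% (78.6 to 78.9) of them, and 73.4% (73.2 to 73.6) of the double knockout's nucleosomes were matched in return. The list titled Cdx2-Cdx1 matched 77.7% of the Cdx2 knockout's nucleosomes, wild type 75.4% and Hnf4a knockout 71.6%. The match share thus differed little between the double knockouts. It rose with the score, from 44.8% where the Cdx2 knockout score was 53.1 to 70.3 to 99.01% where it was 1439 or more. The double knockout list was longer but its scores were not higher: its median was 238.9 against 249.7, and it covered 28.1 Mb against 26.2 Mb. Nucleosomes lay a median of 195 bp apart in all 5 lists, counting neighbours at most 300 bp apart.

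The nucleosomes that the lists did not share lay in different places. Of the 54631 Cdx2 knockout nucleosomes with no match in the double knockout, 26.7% (26.3 to 27.0) lay within 1 kb of a wild-type HNF4A peak, against 20.5% (20.4 to 20.7) of the matched ones. Of the 73400 nucleosomes of the double knockout with no match in Cdx2 knockout, 10.97% (10.8 to 11.2) lay within 1 kb of HNF4A. Both unmatched sets were weak, with median scores of 99.5 and 95.4, against 344.0 and 360.9 for the matched ones. The unmatched nucleosomes of the Cdx2 knockout overlapped a wild-type nucleosome in 54.3% of cases, against 75.4% of all its nucleosomes. Those of the double knockout did so in 20.2%, against 64.7% of all its nucleosomes. They overlapped one of the list titled Cdx2-Cdx1 in 48.2%, against 76.1% of all. Nucleosomes absent from the double knockout list thus lay within 1 kb of HNF4A more often than those added to it. They were also more often present in wild type than the added ones, but both sets were so less often than their whole lists.

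Near HNF4A the double knockout titled Cdx2-Hnf4a held fewer marked nucleosomes than Cdx2 knockout. The mean number within 1 kb of a wild-type HNF4A peak was 3.14 in wild type, 3.21 in Hnf4a knockout, 2.85 in Cdx2 knockout, 2.92 in the list titled Cdx2-Cdx1 and 2.51 in the list titled Cdx2-Hnf4a. Scaled by the length of each list, the ratio of the double knockout titled Cdx2-Hnf4a to Cdx2 knockout was 0.820 (0.811 to 0.829). For the list titled Cdx2-Cdx1 the ratio was 0.935 (0.925 to 0.945), and the ratio of the first double knockout to the second was 0.877 (0.867 to 0.887). Cdx2 knockout itself stood at 0.867 (0.857 to 0.876) of wild type. The lowest number was thus in the list titled Cdx2-Hnf4a, while Hnf4a knockout with Cdx2 intact did not lie below wild type in unscaled mean number.

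The lower number was spread over the genome. On all 20 chromosomes with HNF4A peaks the scaled ratio within 1 kb of them was below 1, from 0.789 on chromosome 12 to 0.885 (0.762 to 1.03) on X, and on 19 of the 20 the interval lay below 1. Over whole autosomes the ratio ran from 0.954 to 1.04.

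The share of HNF4A peaks with no marked nucleosome within 1 kb was 23.2% in wild type, 22.6% in Hnf4a knockout, 28.2% in Cdx2 knockout, 26.9% in the list titled Cdx2-Cdx1 and 36.1% in the list titled Cdx2-Hnf4a. Of 16070 peaks marked in Cdx2 knockout, 2270 had no nucleosome left in the double knockout titled Cdx2-Hnf4a (14.1%, 13.6 to 14.7). Over all 2 kb windows marked in Cdx2 knockout the share emptied was similar, at 13.1% (12.9 to 13.3) of 88657. The list titled Cdx2-Cdx1 had emptied 5.07% (4.73 to 5.42) of the same peaks and 10.7% (10.5 to 10.9) of the same windows. In the opposite direction, 501 of the 14301 peaks marked in the list titled Cdx2-Hnf4a had none in Cdx2 knockout (3.503%, 3.21 to 3.82), against 19.6% (19.4 to 19.9) of its 95837 marked windows. For the list titled Cdx2-Cdx1 these shares were 6.77% (6.39 to 7.17) and 21.2% (20.9 to 21.4).

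The difference depended on distance from HNF4A. Between 100 and 250 bp from the nearest HNF4A peak centre, where the flanking nucleosomes lie, Cdx2 knockout had 14954 nucleosomes and the double knockout titled Cdx2-Hnf4a 11789, a scaled ratio of 0.734 (0.716 to 0.752). Within 100 bp the ratio was 0.931 (0.903 to 0.960), from 250 to 500 bp 0.817 (0.798 to 0.836), and from 500 bp to 1 kb 0.851 (0.834 to 0.870). It was 0.935 (0.919 to 0.951) from 1 to 2.5 kb and 1.15 (1.14 to 1.17) beyond 100 kb. The lowest ratio was thus that of the flanking nucleosomes, and the ratio rose with distance from there on. The list titled Cdx2-Cdx1 also had its lowest ratio there, at 0.871 (0.851 to 0.891), and ran from 0.939 to 1.06 in all bins beyond 250 bp. These ratios are relative to the whole list, so fewer nucleosomes near HNF4A put the ratio up elsewhere. Far from HNF4A the unscaled numbers were higher as well. Scaled by nucleosomes over 5 kb from every factor peak in place of list length, the flanking ratio was 0.672. From 5 to 20 kb the ratio was then 0.9503 in place of 1.04, and beyond 100 kb it was 1.06. This scaling sets the ratio over all nucleosomes beyond 5 kb from every peak to 1. Without scaling, the numbers within 100 bp were 8181 in Cdx2 knockout and 8182 in the double knockout, and those from 1 to 2.5 kb were 25973 and 26083, so these ratios lie below 1 only after scaling. From 5 to 20 kb the unscaled numbers were 57941 and 64596, and beyond 100 kb 27311 and 33837.

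**Figure D1:**
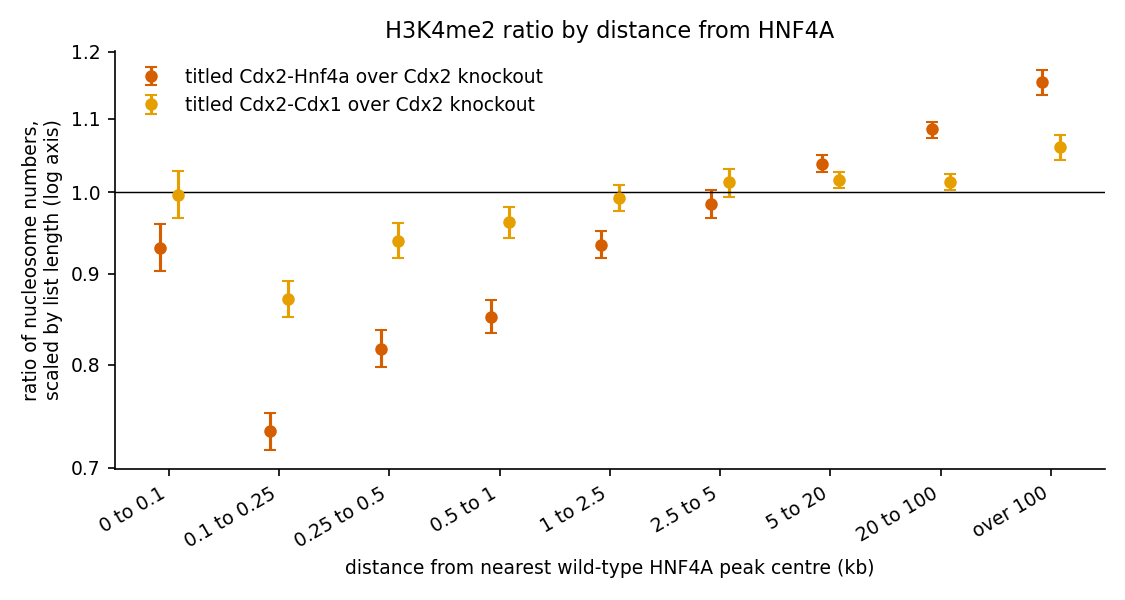
Ratio of H3K4me2 nucleosome numbers to Cdx2 knockout (log axis) by distance from the nearest wild-type HNF4A peak centre in kb, for both double knockouts, with 95% counting intervals. The list titled Cdx2-Hnf4a is lowest from 100 to 250 bp (0.734) and highest beyond 100 kb (1.15), and the list titled Cdx2-Cdx1 stays nearer to 1.

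The scores of nucleosomes present in both lists followed the same course. Among 9889 pairs between 100 and 250 bp from HNF4A, with centres at most 50 bp apart and neither score at the ceiling of 3250, the median score was 332.5 in the double knockout titled Cdx2-Hnf4a and 427.9 in Cdx2 knockout. The median ratio of scores within a pair was 0.817, and 64.4% of the pairs were lower in the double knockout. Within 100 bp the median ratio was 0.865 over 5656 pairs, between 500 bp and 1 kb it was 0.998 over 12450, and beyond 20 kb it was 1.095 over 71684. The flanking nucleosomes that remained were thus the ones with the lowest relative score. Scores move with sequencing depth, which is unknown here.

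The arrangement around HNF4A differed in shape between lists. For each nucleosome within 100 bp of an HNF4A centre there were 2.28 flanking ones in wild type, 2.07 in Hnf4a knockout, 1.83 in Cdx2 knockout, 1.597 in the list titled Cdx2-Cdx1 and 1.44 in the list titled Cdx2-Hnf4a. The ratio of flank over centre between the double knockout titled Cdx2-Hnf4a and Cdx2 knockout was 0.788 (0.758 to 0.820), and for the list titled Cdx2-Cdx1 it was 0.874 (0.841 to 0.907). This measure does not depend on the list lengths. Both double knockouts lay below Cdx2 knockout, the list titled Cdx2-Hnf4a by more.

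At HNF4A peaks kept in Cdx2 knockout, 162.5 bp from the centre, the density was 220.7 nucleosome centres per 1000 peaks and 25 bp in wild type. It was 204.8 in Hnf4a knockout, 188.6 in Cdx2 knockout, 166.3 in the list titled Cdx2-Cdx1 and 138.7 in the list titled Cdx2-Hnf4a, each list scaled to 250000 nucleosomes. At the centre of the same peaks the order was different, with 82.2 in wild type, 93.5 in Hnf4a knockout, 99.1 in Cdx2 knockout, 103.3 in the list titled Cdx2-Cdx1 and 100 in the list titled Cdx2-Hnf4a. At lost peaks the flanking maximum of Cdx2 knockout was 97.5. The list titled Cdx2-Cdx1 had 81.2 at that distance and 79.4 at the centre, and the list titled Cdx2-Hnf4a had 64.8 and 70.6. The flanking maximum thus had no clear counterpart in either double knockout.

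**Figure D2:**
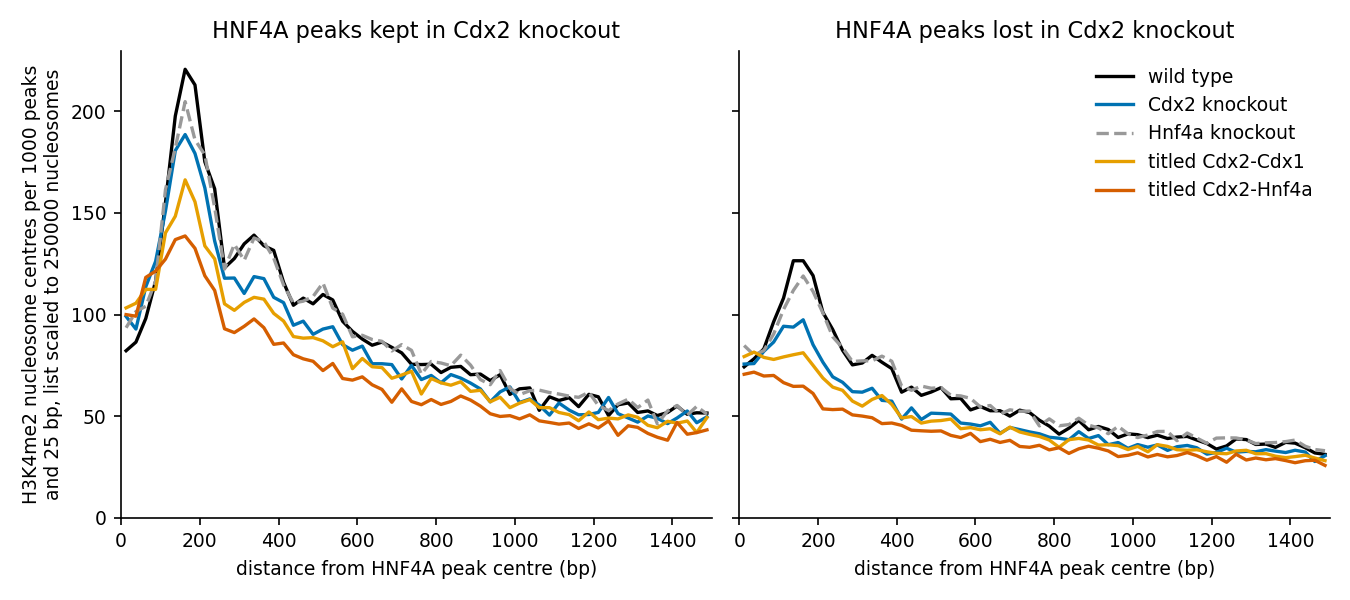
H3K4me2 nucleosome centres per 1000 HNF4A peaks and 25 bp (each list scaled to 250000 nucleosomes) against distance from the peak centre in bp, for peaks kept (left) and lost (right) in Cdx2 knockout. Lines are the 5 lists; at 162.5 bp from kept peaks they run from 220.7 in wild type down to 138.7 in the list titled Cdx2-Hnf4a.

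Single enhancers showed the same order. In wild type, 4167 HNF4A peaks had a marked nucleosome on each side between 100 and 250 bp and none within 100 bp, which is called an open pair here. Since they were chosen on the wild-type list, every other list had to be lower, and only the other lists are compared. An open pair was found again at 62.2% (60.7 to 63.7) of them in Hnf4a knockout, 54.9% (53.3 to 56.4) in Cdx2 knockout, 42.8% (41.3 to 44.3) in the list titled Cdx2-Cdx1 and 33.9% (32.5 to 35.4) in the list titled Cdx2-Hnf4a. The 2 double knockouts both had a marked nucleosome at the centre more often, at 29.2% and 30.8% of these peaks, against 21.6% (20.3 to 22.8) in Cdx2 knockout. Choosing peaks with an open centre in wild type favours such gains. Of all 22375 HNF4A peaks, 7948 had a central nucleosome in Cdx2 knockout, 8636 in the list titled Cdx2-Cdx1 and 7915 in the list titled Cdx2-Hnf4a. The gain in the list titled Cdx2-Hnf4a was thus not seen over all peaks. That list had a central nucleosome at 3178 kept peaks, against 2937 in Cdx2 knockout, and at 4737 lost peaks, against 5011. Among the 4167 peaks, the double knockouts differed in those left with no nucleosome within 250 bp: 20.2% (18.97 to 21.4) in the list titled Cdx2-Hnf4a, against 8.74% (7.90 to 9.63) in the list titled Cdx2-Cdx1 and 7.46% (6.68 to 8.30) in Cdx2 knockout. At the 2185 lost peaks among them this share was 28.8% (26.9 to 30.7) in the list titled Cdx2-Hnf4a and 12.3% in Cdx2 knockout, and at the 1982 kept peaks 10.7% and 2.17%.

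**Figure D3:**
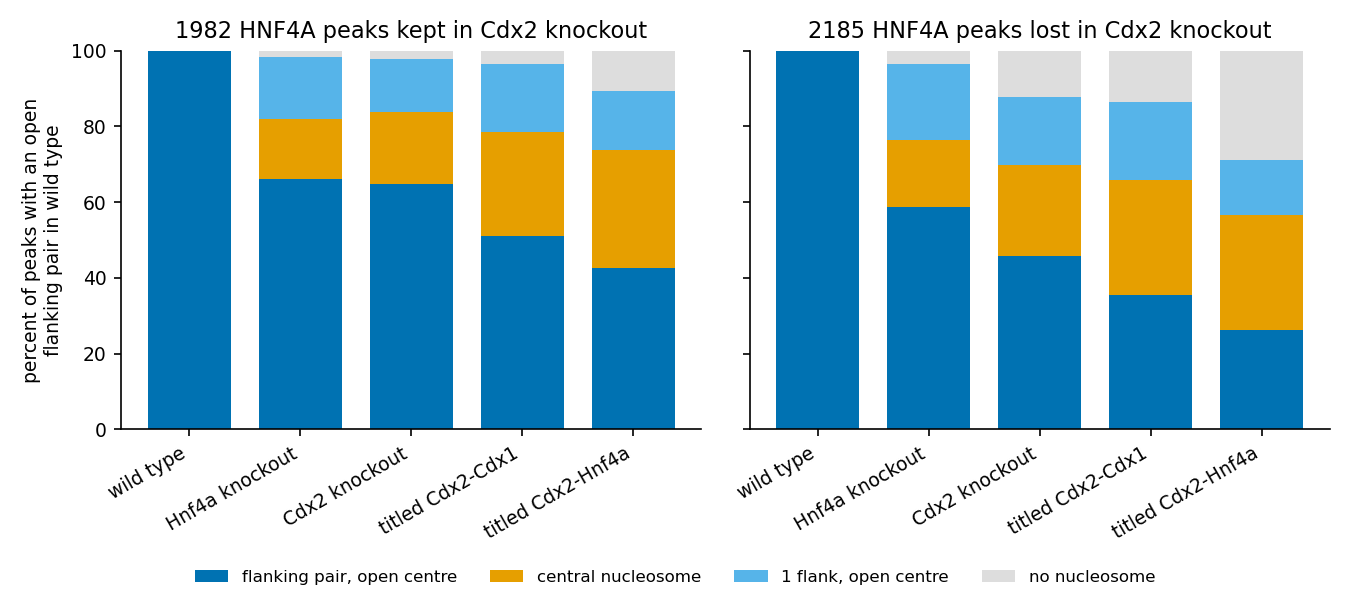
Percent of HNF4A peaks with an open flanking pair in wild type that show a flanking pair, a central nucleosome, 1 flank or no nucleosome in each of the 5 lists, for 1982 peaks kept and 2185 lost in Cdx2 knockout. The bar without nucleosomes is tallest in the list titled Cdx2-Hnf4a, at 10.7% and 28.8%.

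HNF4A was called again in Cdx2 knockout at 6740 of its wild-type peaks (kept) and not at 15635 (lost, which means not called). Kept peaks had a mean of 4.08 nucleosomes in Cdx2 knockout and 3.64 in the double knockout titled Cdx2-Hnf4a, a ratio of 0.828 (0.814 to 0.843). Lost peaks had 2.32 and 2.03, a ratio of 0.814 (0.802 to 0.826). The kept ratio was 1.02 times the lost ratio (0.995 to 1.04), an interval that includes 1. The ratio differed little with the strength of the HNF4A that remained. In 3 equal groups of kept peaks by their score in Cdx2 knockout it was 0.818, 0.828 and 0.838, with overlapping intervals. The double knockout's own HNF4A binding was not measured.

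Kept peaks have higher HNF4A scores, with a median of 170.0 in wild type against 68.6 for lost ones, so both classes were also compared within 5 equal groups of the wild-type score. In the lowest group, with scores from 50 to 57.15, the ratio was 0.853 (0.786 to 0.926) at 320 kept and 0.870 (0.843 to 0.898) at 4155 lost peaks. In the highest, from 174.9 to 3100, it was 0.802 (0.783 to 0.822) at 3290 kept and 0.671 (0.635 to 0.709) at 1185 lost peaks. The kept ratio there was 1.195 times the lost ratio (1.13 to 1.27), with means of 2.58 nucleosomes in Cdx2 knockout and 1.86 in the double knockout at lost peaks. In the next group down it was 1.11 times (1.06 to 1.16). The strongest HNF4A peaks that were not called in Cdx2 knockout thus had the lowest ratio. At the same lost peaks the list titled Cdx2-Cdx1 stood at 0.926 of Cdx2 knockout. Over all peaks, kept against lost depended on the setting. It was 1.05 (1.02 to 1.08) within 500 bp, 1.03 (1.01 to 1.05) with kept defined by an overlap of 0.5 of the peak, and 1.11 (1.07 to 1.15) at HNF4A scores of 100 or more. It was 0.990 (0.966 to 1.02) at nucleosome scores of 100 or more and 0.994 (0.977 to 1.01) within 2.5 kb, where the intervals include 1, and 0.953, with no interval, with summed scores.

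**Figure D4:**
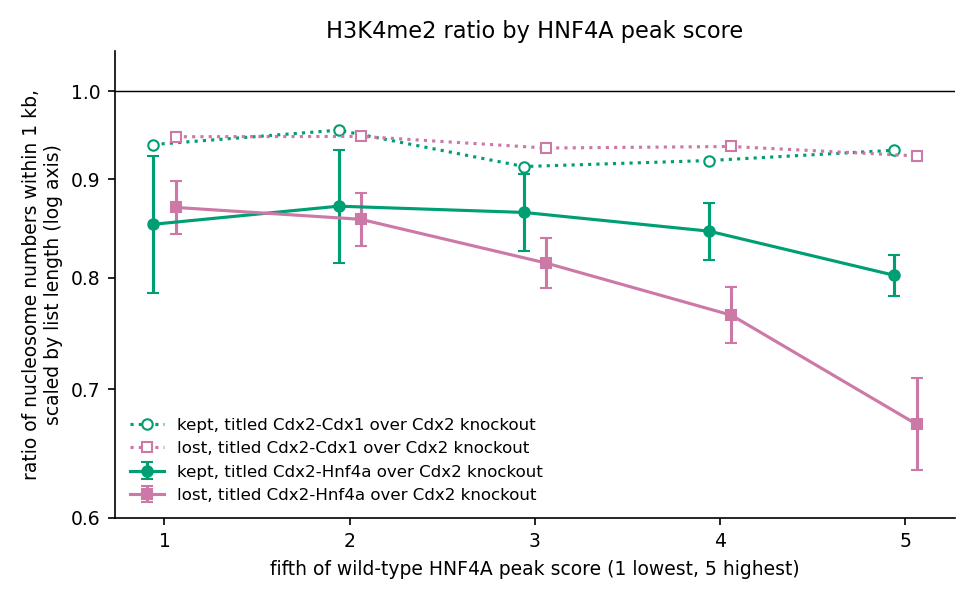
Ratio of H3K4me2 nucleosome numbers within 1 kb to Cdx2 knockout (log axis) in 5 equal groups of wild-type HNF4A score, for kept (circles) and lost (squares) peaks. Filled symbols with 95% counting intervals are the list titled Cdx2-Hnf4a, open symbols the list titled Cdx2-Cdx1; kept and lost part in the highest group, at 0.802 and 0.671.

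Peaks that HNF4A had in Cdx2 knockout alone differed from those it shared with wild type. At these 2865 peaks the mean number of nucleosomes was 2.75 in wild type, 2.995 in Cdx2 knockout and 2.91 in the double knockout titled Cdx2-Hnf4a, a ratio of 0.906 (0.879 to 0.934). The ratio at kept peaks was 0.915 times that (0.883 to 0.947). The list titled Cdx2-Cdx1 stood at 0.928 (0.901 to 0.956), so here the 2 double knockouts had overlapping intervals. The 2865 peaks had a median HNF4A score of 61.8 in Cdx2 knockout, and kept peaks one of 170.0 in wild type. At the 320 kept peaks of the lowest wild-type score group the ratio was 0.853 (0.786 to 0.926), which overlaps the interval of 0.906. Peaks in Cdx2 knockout alone were not compared with kept peaks within score groups.

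At CDX2 sites the 2 double knockouts lay apart. The mean number of nucleosomes within 1 kb of the 1584 sites was 2.76 in wild type, 3.05 in Hnf4a knockout, 2.15 in Cdx2 knockout, 2.46 in the list titled Cdx2-Cdx1 and 1.92 in the list titled Cdx2-Hnf4a. Cdx2 knockout stood at 0.745 (0.713 to 0.780) of wild type, and the double knockout titled Cdx2-Hnf4a at 0.829 (0.789 to 0.871) of Cdx2 knockout. The list titled Cdx2-Cdx1 stood at 1.04 (0.992 to 1.09). Sites with no nucleosome made up 39.6% in Cdx2 knockout, 33.6% in the list titled Cdx2-Cdx1 and 46.0% in the list titled Cdx2-Hnf4a, against 24.9% in wild type. The list titled Cdx2-Hnf4a was thus lower than Cdx2 knockout at sites that were already low in it.

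The difference at CDX2 sites was larger where HNF4A was also bound. At 684 sites with a wild-type HNF4A peak, Cdx2 knockout had a mean of 3.12 nucleosomes and the double knockout titled Cdx2-Hnf4a 2.63, a ratio of 0.783 (0.735 to 0.834). At 900 sites without one they had 1.42 and 1.38, a ratio of 0.906 (0.837 to 0.980). The first ratio was 0.864 times the second (0.782 to 0.955). Among HNF4A peaks at a CDX2 site, 507 were lost in Cdx2 knockout and had a ratio of 0.744 (0.686 to 0.807), and 253 were kept and had 0.814 (0.747 to 0.887). Lost peaks at a CDX2 site stood at 0.908 times (0.836 to 0.986) the ratio of lost peaks with no CDX2 peak in either library. For kept peaks the same comparison gave 0.980 (0.898 to 1.07), which does not differ from 1 beyond counting error. Lost peaks at a CDX2 site had higher wild-type HNF4A scores, with a median of 96.0 against 66.5 for those with no CDX2 peak. Ratios at lost peaks were lower at higher scores, and the comparison by CDX2 was not made within score groups.

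**Figure D5:**
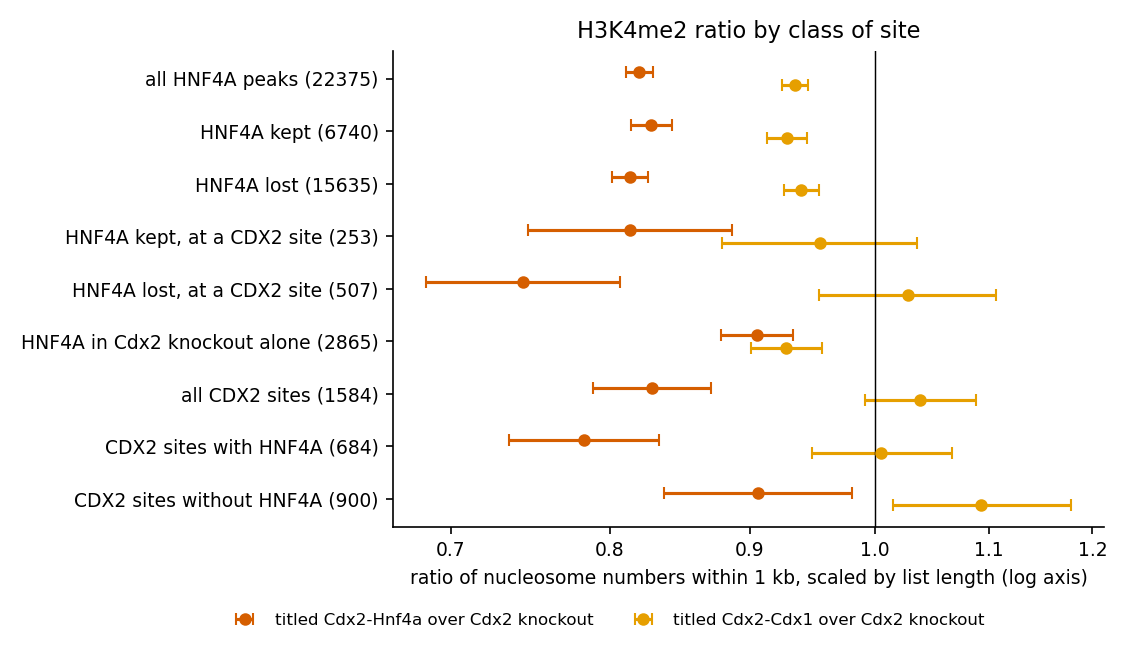
Ratio of H3K4me2 nucleosome numbers within 1 kb to Cdx2 knockout (log axis) by class of site, with the number of sites in parentheses and 95% counting intervals, for both double knockouts. The list titled Cdx2-Hnf4a lies below 1 in each class shown, lowest at lost HNF4A peaks with a CDX2 site (0.744), and the list titled Cdx2-Cdx1 runs from 0.928 to 1.09.

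Over the genome in windows of 2 kb, higher and lower windows were about as frequent after scaling by list length. Of 54353 windows with 4 or more nucleosomes summed over both lists, 3322 were at least 2-fold lower in the double knockout titled Cdx2-Hnf4a after scaling (6.11%) and 3554 at least 2-fold higher (6.54%). Without scaling the number of lower windows was the same and 5024 were higher, since an exact doubling falls short of 2-fold once scaled. In the list titled Cdx2-Cdx1, compared with the same Cdx2 knockout list, 5.19% of 55291 windows were lower and 6.98% higher. The totals past this fold were therefore similar for both double knockouts, and without replicates they cannot be set against the spread between libraries of 1 group. With 8 or more summed nucleosomes, 589 windows were lower and 483 higher.

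The windows differed in what they held. An HNF4A peak centre lay in 33.9% (32.3 to 35.5) of the lower windows, 6.5% (5.71 to 7.36) of the higher ones and 18.5% of all tested. Of 10067 tested windows with HNF4A, 11.2% (10.6 to 11.8) were lower and 2.29% (2.01 to 2.61) higher, and of 44286 without it 4.96% and 7.503%. In the list titled Cdx2-Cdx1 the shares of windows with HNF4A were 4.68% lower and 5.06% higher. At HNF4A peaks themselves, of 22375 peaks 12040 had enough nucleosomes, and 12.0% (11.4 to 12.6) were lower and 2.01% (1.77 to 2.28) higher, beside 6.11% and 6.54% of all windows. At CDX2 sites, of 1584 sites 689 had enough, with 10.6% (8.40 to 13.1) lower and 2.03% higher. At peaks called in Cdx2 knockout alone, 6.17% (5.08 to 7.41) of 1734 tested were lower and 3.06% (2.30 to 3.98) higher, so the lower share was near that of all windows and the higher share was below it.

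Lower windows were mostly marked in the other lists, as tested windows were in general. Of the lower windows 5.09% were empty in wild type, 5.96% in Hnf4a knockout and 4.85% in the list titled Cdx2-Cdx1. Over all tested windows these shares were 7.46%, 7.44% and 1.92%. Lower windows had a mean of 3.75 nucleosomes in wild type, 4.42 in Cdx2 knockout, 3.68 in Hnf4a knockout, 3.25 in the list titled Cdx2-Cdx1 and 1.47 in the list titled Cdx2-Hnf4a. Over all tested windows the means were 3.57, 3.96, 3.53, 3.94 and 4.11 in the same order. Higher windows had few nucleosomes where Cdx2 was intact: 1.07 in wild type and 1.26 in Hnf4a knockout. They had 1.14 in Cdx2 knockout, 2.71 in the list titled Cdx2-Cdx1 and 4.29 in the list titled Cdx2-Hnf4a. These windows were selected on the 2 compared lists, so only the other 3 lists are free of that choice.

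Because windows with HNF4A are fuller, windows were also grouped by their wild-type number. With 1 or 2 wild-type nucleosomes the ratio was 0.796 (0.770 to 0.822) in 5840 windows with HNF4A and 1.01 (0.995 to 1.02) in 39120 with neither factor. With 3 or 4 it was 0.809 (0.789 to 0.829) against 0.947 (0.936 to 0.959), and with 5 or 6 it was 0.833 (0.813 to 0.853) against 0.918 (0.905 to 0.931). With 9 or more it was 0.830 (0.789 to 0.874) in 392 windows and 0.869 (0.839 to 0.8995) in 815, where the intervals overlap. Among windows empty in wild type it was 1.16 (1.05 to 1.27) in 1459 windows with HNF4A and 1.91 (1.88 to 1.95) in 43346 with neither factor. The gap between windows with and without HNF4A was thus wider the fewer nucleosomes wild type had, in the groups given here. In the list titled Cdx2-Cdx1 the windows with HNF4A stood at 1.04, 0.963, 0.911 and 0.860 and those with neither factor at 1.02, 0.924, 0.883 and 0.851, so in these groups HNF4A windows were not the lower ones. Among windows empty in wild type they were lower there too, at 1.49 against 1.71. Both double knockouts thus listed more nucleosomes than Cdx2 knockout where wild type listed none.

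At the 8 strongest HNF4A peaks of the Cdx2 knockout, the double knockout titled Cdx2-Hnf4a held as many marked nucleosomes at 5, fewer at 2 and more at 1. The summed score was lower at 6 of the 8. The first, on chromosome 16 at 76453883 to 76454588, with an HNF4A score of 2367 in Cdx2 knockout, held 5 nucleosomes within 1 kb in wild type, Cdx2 knockout, Hnf4a knockout and the double knockout titled Cdx2-Hnf4a, and 7 in the list titled Cdx2-Cdx1. Its summed scores were 4234 in Cdx2 knockout and 3931 in the double knockout. The second, on chromosome 6 at 83371728 to 83372778, held 7 in wild type, 5 in Cdx2 knockout and 4 in the double knockout titled Cdx2-Hnf4a, with summed scores of 1594 in Cdx2 knockout and 819 in the double knockout. The largest difference among the 8 was on chromosome 12 at 113368160 to 113368734, with 8 nucleosomes in Cdx2 knockout and 5 in the double knockout, which is also the wild-type number. Its summed scores were 4972 and 2152. A peak on chromosome 3 at 87312066 to 87313498 went the other way, with 5 and 6 nucleosomes and summed scores of 6184 and 7426. Single peaks hold so few nucleosomes that no interval is given for them.

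Some HNF4A peaks had no marked nucleosome left in the double knockout titled Cdx2-Hnf4a. The following were picked as the largest differences of this comparison and are a description of it. A peak on chromosome 2 at 31936156 to 31936827 (HNF4A score 176.6) held 8 nucleosomes in wild type, 10 in Cdx2 knockout, 9 in Hnf4a knockout and 7 in the list titled Cdx2-Cdx1, and 0 in the list titled Cdx2-Hnf4a. On chromosome 1 at 88996600 to 88997153 the numbers were 10, 9, 9 and 8 in the same order, and again 0. On chromosome 14 at 121901335 to 121901829 they were 9, 9, 9 and 5, and 0. Of the 8 peaks with the largest fall, 7 held none in the double knockout titled Cdx2-Hnf4a, while the other 4 lists held 5 to 10 at each. None of these 7 was called for HNF4A in Cdx2 knockout, and neither were 15635 of all 22375 wild-type HNF4A peaks. A window on chromosome 1 at 174416001 to 174418000, with no factor peak, held 7 nucleosomes in wild type, 10 in Cdx2 knockout, 9 in Hnf4a knockout, 3 in the list titled Cdx2-Cdx1 and 0 in the list titled Cdx2-Hnf4a.

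Differences of this size in the other direction were found mostly where the other lists had little. On chromosome 2 an HNF4A peak at 127479761 to 127479925 (score 58.0) held 8 nucleosomes in the double knockout titled Cdx2-Hnf4a and 0 in each of the other 4 lists. A window on chromosome 7 at 53352001 to 53354000 held 9 and 0 in the same way. A window on chromosome 10 at 126438001 to 126440000 held 11 in the list titled Cdx2-Hnf4a and 6 in the list titled Cdx2-Cdx1, and 1 in each of the other 3. Of the 8 windows with the largest rise, 7 held no factor peak, and the exception was the window of the peak on chromosome 2. Most windows hold none: 41955 of the 54353 tested windows had no CDX2 or HNF4A wild-type peak centre.

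Among CDX2 sites the largest fall was on chromosome 14 at 46635635 to 46637035, a site with HNF4A, which held 8 nucleosomes in wild type, 6 in Cdx2 knockout, 7 in Hnf4a knockout, 6 in the list titled Cdx2-Cdx1 and 0 in the list titled Cdx2-Hnf4a. On chromosome 11 at 114944784 to 114946461, also with HNF4A, the numbers were 7, 6, 9 and 5, and 1. The largest rise was on chromosome 2 at 122609184 to 122610127, where wild type had 2 nucleosomes, and 1 was listed in Cdx2 knockout, 4 in Hnf4a knockout, 3 in the list titled Cdx2-Cdx1 and 5 in the list titled Cdx2-Hnf4a. Of the 5 CDX2 sites with the largest fall 3 had HNF4A, and of the 5 with the largest rise 1 did. Beside these, 684 of all 1584 CDX2 sites had HNF4A, and 411 of the 689 with enough nucleosomes to be called. Counts out of 5 are too small to set against these shares.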

How the data were processed

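Per the labels, ChIP-seq was run on jejunal villi, and unfixed villi treated with micrococcal nuclease are described without saying for which libraries. The lists are on build mm9, per the submitters' processing notes; the aligner, the caller, the controls and the number of reads were not given in the sources used here. Depth is thus unknown. Each of the 10 deposited lists used gives a score per feature: −log10 of a p-value multiplied by 10 for nucleosomes, per the file headers, with a ceiling of 3250, and an unexplained score of 50 or more for factor peaks, as deposited by the authors. Whether coordinates count from 0 or 1 is not stated, and they are printed as deposited. The input sample was not analysed here.

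Nucleosomes scoring 52 or more were counted by their centres within 1 kb of a site centre, once at each site they lie near. In Cdx2 knockout 56063 nucleosomes near HNF4A peaks thus gave 63769 counts. The intervals do not allow for such repeats or for neighbouring nucleosomes that change together. The nucleosome minimum is needed because the Hnf4a knockout list reaches down to a score of 1.70 and the others to between 50.1 and 51.3. Ratios were scaled by list length, with exact binomial intervals (scipy 1.17.1, Python 3.11.15); shares have exact Clopper-Pearson intervals and ratios of ratios Woolf intervals. Windows of 2 kb were tiled, tested at 4 or more summed nucleosomes and called at 2-fold. HNF4A peaks were kept at an overlap of 1 bp. The scaled ratio within 1 kb of HNF4A, with each nucleosome counted once, was tried on the Cdx2 knockout list thinned at random. That trial covered neither the counts per site nor the intervals, and it held no difference between libraries. Sites were named by rule: the 8 HNF4A peaks scoring highest in Cdx2 knockout, and the 8 HNF4A peaks, 8 windows and 5 CDX2 sites with the largest fall and rise. Those printed are part of these. Planned lists of genes and cell type markers were not used, for lack of an mm9 annotation. The comparison, its classes of sites and its rules were chosen with earlier results of these data known.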

Additional observations from a re-analysis of the deposited data

Results flagged for a closer look

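At the 900 CDX2 sites without HNF4A the double knockouts lay on opposite sides of Cdx2 knockout. The scaled ratio of nucleosome numbers was 0.906 (0.837 to 0.980) for the list titled Cdx2-Hnf4a and 1.09 (1.02 to 1.18) for the list titled Cdx2-Cdx1. With 1 library each the difference between them was not tested.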

How the results depend on the processing

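The ratios at all, kept and lost HNF4A peaks and at CDX2 sites, and flank over centre, stayed below 1 under the alternatives run for them. Of 70 values under alternatives, 34 stayed within the counting interval of the reported value, or for a count within 1.5 times, and 36 moved; the cause was not tested. The flank over centre alternatives, and the window counts scaled by nucleosomes over 5 kb from every peak, were chosen after seeing the data. In the order all, kept and lost HNF4A peaks, and CDX2 sites, the ratios were 0.881, 0.890, 0.874 and 0.891 without scaling, and 0.751, 0.759, 0.745 and 0.759 when scaled by nucleosomes over 5 kb from every peak, a shift of -0.13 on the log2 scale that also lowers ratios elsewhere. From summed scores they were 0.881, 0.857, 0.899 and 0.916, and flank over centre was 0.839. With lists of equal length the HNF4A ratios were 0.835, 0.846 and 0.827. All and lost peaks gave 0.809 and 0.793 within 500 bp, and 0.845 and 0.848 within 2.5 kb. With HNF4A scores of 100 or more they gave 0.790 and 0.735, with a flank over centre of 0.742. Lost peaks gave 0.830 with nucleosome scores of 100 or more. Kept over lost was 1.05 within 500 bp, 1.11 with HNF4A scores of 100 or more, and turned to 0.990 with nucleosome scores of 100 or more, 0.994 within 2.5 kb and 0.953 from summed scores. At CDX2 peaks of a single wild-type library the ratio was 0.863 to 0.878. The matched share was 78.2% with lists as deposited, 80.1% at scores of 100 or more, 76.4% with lists of equal length and 74.8% with centres within 50 bp. With 8 or more nucleosomes, 589 windows were lower and 483 higher, and without scaling 5024 were higher. No paired analysis was possible because each H3K4me2 group has 1 library. Precision is limited by 1 library a side and by unknown depth. As labelled, antibody lot cannot be told apart from genotype for the list titled Cdx2-Hnf4a.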
